A study of Arabidopsis thaliana with 12 samples.

Results

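Salicylic acid, a hormone of Arabidopsis thaliana that activates defence against microbes that feed on living tissue, is kept in check by enzymes that hydroxylate it or attach glucose to it. Pipecolic acid, made from lysine, and its N-hydroxylated form are partner signals that carry immunity to leaves not yet attacked. This account is about 8 genes of these routes, taken by their locus codes out of 33331 genes in the count table. The choice was made with earlier results of these data known. They are the salicylic acid hydroxylases S3H (AT4G10500) and DMR6 (AT5G24530), the glucosyltransferases UGT74F1 (AT2G43840), UGT74F2 (AT2G43820) and UGT76B1 (AT3G11340), and the pipecolic acid route genes ALD1 (AT2G13810), SARD4 (AT5G52810) and FMO1 (AT1G19250).

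Their RNA was counted by 3′ RNA-seq, which reads each transcript near its end, in whole shoots of plants 2 weeks old. The 12 libraries fell into 4 genotypes of 3 libraries each: aig2abc pad4, aig2abc, pad4 and wild-type Col-0. All plants were grown at 22 °C, under 100 µmol of constant light and at 50% humidity, with no treatment named. The alleles and lesions of aig2abc and pad4 are not given in the labels, nor whether the libraries of a group came from separate plants, so a p-value here is about how these libraries scatter and that scatter may be technical.

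The libraries held 5542138 to 8330632 counts in aig2abc pad4, 584342 to 3005199 in aig2abc, 7991739 to 10697612 in pad4 and 6561011 to 9742035 in Col-0. The aig2abc group was thus the shallowest, and its replicate 2 was the smallest library. AIG2C (AT3G28950) averaged 0.424 ± 0.155 CPM (counts scaled to a common library total) in aig2abc pad4, 0.909 ± 0.788 in aig2abc, 37.7 ± 8.02 in pad4 and 44.3 ± 16.1 in Col-0 (SD, n = 3 each). PAD4 averaged 7.24 ± 2.21 CPM in aig2abc pad4, 47.6 ± 8.68 in aig2abc, 2.88 ± 0.216 in pad4 and 25.9 ± 9.66 in Col-0. Transcripts of AIG2A and AIG2B were still counted in the mutant lines: AIG2A (AT3G28930) averaged 244 ± 40 CPM in aig2abc pad4, 85.6 ± 16.9 in aig2abc, 47.4 ± 5.7 in pad4 and 65.1 ± 7.5 in Col-0, and AIG2B (AT3G28940) averaged 196 ± 121 CPM in aig2abc pad4, 669 ± 112 in aig2abc, 951 ± 381 in pad4 and 751 ± 246 in Col-0. Whether those tags lie outside the lesions is not given in the sources used here. The 5 green tissue markers summed to 21000 to 27100 CPM in aig2abc pad4, 11600 to 12600 in aig2abc, 27200 to 34400 in pad4 and 27200 to 31300 in Col-0. The 5 root markers summed to 23.6 to 35.4 CPM in aig2abc pad4, 14.3 to 25.7 in aig2abc, 16.8 to 28.4 in pad4 and 17.7 to 39.3 in Col-0. PYK10 alone averaged 30.1 CPM in aig2abc pad4, 17.5 in aig2abc, 21 in pad4 and 24.5 in Col-0, and EXPA7 had 0 counts in every library.

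DMR6 and UGT76B1 were higher in both aig2abc lines than in the line each was set against. S3H was nearly absent from pad4, with 2 counts over 3 libraries, and was detected in every library of aig2abc pad4. UGT74F2 and SARD4 differed by smaller amounts. ALD1 had 0 counts in all 3 pad4 libraries, and UGT74F1 and FMO1 were at or near the limit of detection throughout.

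The counts were scaled by library size and by a trimmed-mean factor and tested gene by gene with the quasi-likelihood test of edgeR. Adjustment was after Benjamini and Hochberg, with a threshold of 0.05. Of the 8 genes, 5 passed the filter on low counts and were tested (S3H, DMR6, UGT74F2, UGT76B1 and SARD4), among 15082 genes in all. Log2 changes are from this fit, with their standard errors, while levels are CPM of the library total. Levels are compared between libraries for each gene, not between genes.

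In aig2abc against Col-0, 4 of the 5 tested genes rose and none fell, where 18.0% of all tested genes rose, 19.5% fell and 37.5% changed in either direction. Their median log2 change was 1.34, against -0.08 over all tested genes. The number called was 2 without Col-0 replicate 1, without aig2abc replicate 1 or without aig2abc replicate 3. Over all genes those fits called 3962, 3730 and 3945, against 5656 with every library. Over the same libraries 4 of 5 green tissue markers fell in aig2abc relative to Col-0, the exception being RBCS1A (-0.22, edgeR adjusted p = 0.501). Epidermis markers fell for 3 of 4, with sums of 202 to 341 CPM in aig2abc, against 387 to 757 in Col-0, and phloem companion cell markers for 2 of 4, with sums of 24 to 28.6 CPM in aig2abc, against 33.7 to 59.9 in Col-0. Of 4 guard cell markers 2 were tested and 1 fell, KAT1 (-2.90), with 2 counts over the aig2abc group. The other, FAMA, differed by -0.09 (edgeR adjusted p = 0.873). Guard cell sums overlapped, at 10.3 to 12.2 CPM in aig2abc and 11.4 to 19.5 in Col-0. Of 5 meristem and flower markers 1 was tested, and it differed the other way, by 1.06, without passing. Their sums were 12 to 31.3 CPM in aig2abc and 10.9 to 14 in Col-0. The part of these markers in the counts of the 5 genes was not tested. Fewer cells of a type and less RNA per cell cannot be told apart in whole shoots.

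In aig2abc pad4 against pad4, 4 of 5 rose and none fell, where 3.34% of all tested genes rose, 0.663% fell and 4.00% changed in either direction. Their median log2 change was 2.17, against -0.02 over all tested genes. In pad4 against Col-0, 2 of 5 fell and none rose, where 0.683% of all tested genes fell, 0.00663% rose and 0.690% changed in either direction, and their median was -2.25 against -0.01. Without Col-0 replicate 1, 5 genes were called lower in pad4, namely S3H, DMR6, UGT76B1, SARD4 and ALD1, which then passed the filter. Over all genes that fit called 106, against 104 with every library. Set against aig2abc, aig2abc pad4 had 2 of 5 lower and none higher, where 11.5% of all tested genes fell, 12.8% rose and 24.3% changed, with a median of -0.78 against 0.08. That number was 1 without aig2abc replicate 1, without aig2abc pad4 replicate 1 or without aig2abc pad4 replicate 2. Over all genes those fits called 1758, 1423 and 1427, against 3661 with every library.

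In aig2abc pad4 against Col-0, 0 of 5 passed edgeR's quasi-likelihood test and 0 passed with DESeq2, where 1.74% of all tested genes were called, 1.42% higher and 0.325% lower. At an unadjusted p under 0.05 in the fit across all genes there were 2, S3H lower (-1.15) and UGT74F2 higher (0.86). The share of all tested genes under that unadjusted threshold is not given here, so nothing is read from these 2. UGT76B1 was called in this comparison without Col-0 replicate 3. The interaction asks whether the difference of aig2abc pad4 from pad4 was unlike that of aig2abc from Col-0. It was called for 1 of 5 genes, S3H, where 14.8% of all tested genes were called, 8.53% with a positive and 6.23% with a negative value. Without aig2abc pad4 replicate 3 it was called for 2, the other being ALD1. Over all genes that fit called the interaction for 4588, against 2227 with every library. The comparisons share groups, so their counts are not independent of each other.

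The same 5 genes were also read by whether the CPM of the libraries overlapped. In aig2abc all libraries were above all Col-0 libraries for 4 genes, against 21.9% of all tested genes, and below for 0, against 28.3%. All aig2abc pad4 libraries were above all pad4 libraries for 5 genes, against 13.7%, and below for 0, against 3.88%. All pad4 libraries were below all Col-0 libraries for 3 genes, against 6.43%, and above for 0, against 3.39%. All aig2abc pad4 libraries were below all aig2abc libraries for 2 genes, against 15.2%, and above for 0, against 25.9%. They were above all Col-0 libraries for 1 gene, UGT74F2, against 13.7%, and below for 0, against 4.14%. The gene that did not overlap in aig2abc pad4 against pad4 but missed the test was SARD4, and in pad4 against Col-0 it was UGT76B1.

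**Figure D1:**
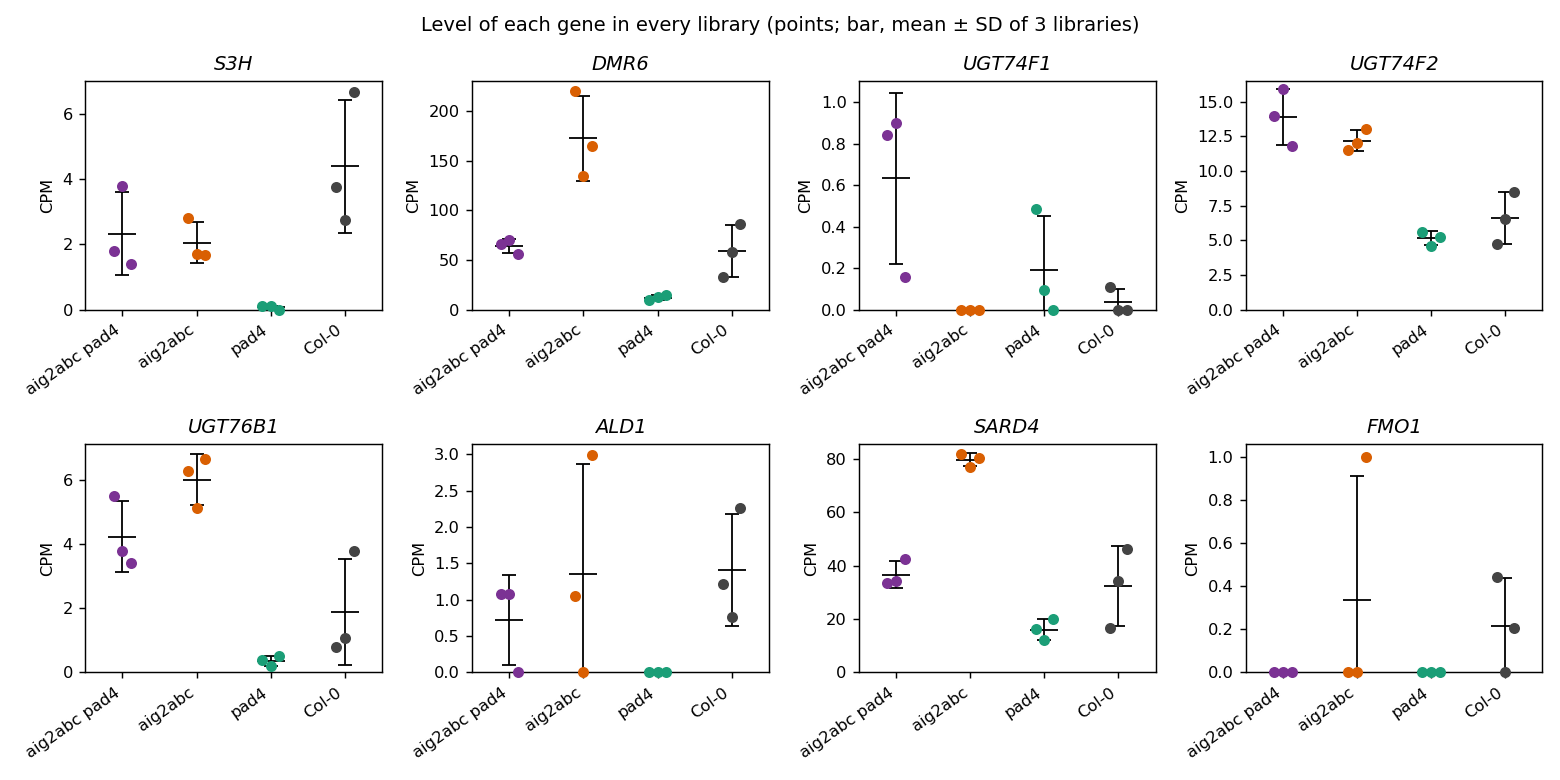
Level of each of the 8 genes in CPM (linear axes from 0) by genotype, with 1 point a library and bars at the mean ± SD of 3 libraries, error bars being drawn only above 0. S3H and DMR6 are lowest in pad4, DMR6 and SARD4 are highest in aig2abc, and ALD1 is at 0 in all 3 pad4 libraries.

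S3H makes 2,3-dihydroxybenzoic acid from salicylic acid, and its RNA was the most strongly changed of the tested genes in pad4. S3H lies on chromosome 4 with its tandem copy DLO2, 5656 bases apart, and their coding sequences are 80.6% identical (839 of 1041 aligned bases), with a longest identical run of 23 bases. The last 60 coding bases before the stop codon are shown because a 3′ assay reads close to them. Capitals mark the 15 bases that differ between the copies (RefSeq TAIR10.1, forward strand).
S3H coding end: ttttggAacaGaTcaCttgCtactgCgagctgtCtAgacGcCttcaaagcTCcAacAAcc
DLO2 coding end: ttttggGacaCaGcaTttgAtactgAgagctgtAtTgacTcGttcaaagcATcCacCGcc
DLO2 had 0 counts in all 12 libraries, and no 50-base stretch of the S3H transcript occurred in another gene.

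S3H had 1.8, 3.79 and 1.4 CPM in aig2abc pad4 libraries, 2.79, 1.71 and 1.66 CPM in aig2abc libraries, 0.0971, 0.0935 and 0 CPM in pad4 libraries, and 3.77, 2.74 and 6.67 CPM in Col-0 libraries. The pad4 libraries lay below all 9 others, while the other 3 genotypes overlapped, with the highest mean in Col-0. These levels rest on few counts, namely 15, 21 and 9 in aig2abc pad4, 8, 1 and 5 in aig2abc, 1, 1 and 0 in pad4, and 34, 18 and 65 in Col-0. S3H fell in pad4 relative to Col-0, at a log2 change of -5.64 ± 0.67 (edgeR adjusted p = 0.000134). From pooled counts the ratio of Col-0 over pad4 was 66.9 (95% interval 18.1 to 559), an interval that, like all such intervals and floors here, covers counting error only. S3H rose in aig2abc pad4 relative to pad4 by 4.49 ± 0.72 (edgeR adjusted p = 0.000739), and the pooled ratio was 32.1 (8.39 to 273).

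In aig2abc relative to Col-0, S3H differed by -1 ± 0.54, which did not pass (edgeR adjusted p = 0.156). The libraries overlapped, aig2abc replicate 1 lying just above Col-0 replicate 2. The change in the pad4 background exceeded that in the PAD4 background by 5.48 ± 0.91 on the log2 scale (interaction, edgeR adjusted p = 0.00909, 0.0365 or less over the 17 alternatives that gave one). S3H in aig2abc pad4 differed from aig2abc by -0.16 ± 0.57 (edgeR adjusted p = 0.866) and from Col-0 by -1.15 ± 0.45 (edgeR adjusted p = 0.298). The pooled ratio of Col-0 over aig2abc pad4 was 2.08 (1.47 to 3.01) and that over aig2abc was 2.13 (1.22 to 4.02). In order of mean level, Col-0 came first at 4.39 ± 2.04 CPM, then aig2abc pad4 at 2.33 ± 1.28, aig2abc at 2.05 ± 0.637 and pad4 at 0.0635 ± 0.055 (SD, n = 3 each). Col-0 and aig2abc pad4, and aig2abc pad4 and aig2abc, are neighbours in that order and did not differ beyond their spread by the test, and aig2abc and pad4 were not compared directly.

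DMR6 hydroxylates salicylic acid at a different carbon, giving 2,5-dihydroxybenzoic acid, and plants without it resist downy mildew. DMR6 had 66, 70.2 and 56 CPM in aig2abc pad4 libraries, 220, 135 and 165 CPM in aig2abc libraries, 9.13, 12.3 and 14.8 CPM in pad4 libraries, and 33.1, 57.8 and 86 CPM in Col-0 libraries. All aig2abc libraries stood above, and all pad4 libraries below, every library of the other genotypes, and aig2abc pad4 lay inside the range of Col-0.

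DMR6 rose in aig2abc relative to Col-0 by 1.61 ± 0.32 (edgeR adjusted p = 0.00121) and in aig2abc pad4 relative to pad4 by 2.17 ± 0.32 (0.000364). It fell in pad4 relative to Col-0, at -2.25 ± 0.33 (edgeR adjusted p = 0.00096), and in aig2abc pad4 relative to aig2abc, at -1.69 ± 0.32 (0.00322). Between aig2abc pad4 and Col-0 the difference was -0.08 ± 0.31 (edgeR adjusted p = 0.959). The interaction was 0.56 ± 0.44 (edgeR adjusted p = 0.384), so a different size of change in the 2 backgrounds was not shown. Of the 4 calls, those of aig2abc against Col-0 and of aig2abc pad4 against aig2abc were lost only when a score of spread between replicates was added to the fit, as set out with SARD4.

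The promoters of S3H and DMR6 are shown because both genes fell in pad4 and rose in aig2abc pad4 relative to pad4, and those of UGT76B1 and ALD1 as further genes with few or no counts in pad4. SARD4 and UGT74F2, whose lowest means were also in pad4, are described by their motifs only. Each is the 250 bases before the annotated start, 5′ to 3′, from RefSeq TAIR10.1. They are S3H at chr4:6490767-6491016, DMR6 at chr5:8378509-8378758, UGT76B1 at chr3:3556304-3556553 and ALD1 at chr2:5768167-5768416, all on the forward strand. Capitals mark matches, on either strand, to the W-box core TTGAC, bound by WRKY factors, the TGA factor core TGACG, or GAAATTT, bound by the defence regulators SARD1 and CBP60g.
S3H promoter: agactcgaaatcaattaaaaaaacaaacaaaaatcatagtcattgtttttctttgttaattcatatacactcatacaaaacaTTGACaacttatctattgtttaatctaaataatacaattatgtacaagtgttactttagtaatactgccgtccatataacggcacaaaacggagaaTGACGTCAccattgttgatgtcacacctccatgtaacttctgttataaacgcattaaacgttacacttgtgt
DMR6 promoter: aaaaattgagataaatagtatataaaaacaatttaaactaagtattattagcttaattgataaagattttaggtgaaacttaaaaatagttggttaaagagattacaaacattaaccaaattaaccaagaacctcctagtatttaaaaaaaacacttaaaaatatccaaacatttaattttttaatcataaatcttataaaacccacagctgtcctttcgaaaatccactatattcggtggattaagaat
UGT76B1 promoter: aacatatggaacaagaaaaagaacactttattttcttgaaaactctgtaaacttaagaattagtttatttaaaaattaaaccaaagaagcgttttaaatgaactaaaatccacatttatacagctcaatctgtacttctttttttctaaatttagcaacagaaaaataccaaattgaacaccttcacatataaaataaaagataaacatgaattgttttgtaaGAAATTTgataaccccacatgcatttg
ALD1 promoter: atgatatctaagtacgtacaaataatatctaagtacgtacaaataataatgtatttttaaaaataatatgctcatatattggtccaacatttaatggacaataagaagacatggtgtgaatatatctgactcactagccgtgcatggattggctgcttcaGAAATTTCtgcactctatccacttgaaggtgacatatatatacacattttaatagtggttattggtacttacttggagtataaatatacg
S3H held 1 TTGAC, 168 bases before the start, and 2 overlapping TGACG matches on opposite strands, at 72 and 69 bases. DMR6 held none of the 3 motifs in this window. UGT76B1 held 1 GAAATTT at 27 bases, and ALD1 held 2 overlapping ones on opposite strands at 90 and 89 bases. FMO1 held 4 of the GAAATTT motif, UGT74F2 held 1 W-box core and UGT74F1 none of the 3, and the SARD4 window, with 2 W-box cores, lies within the neighbouring gene AT5G52800. Over 27443 promoters of the same length, the W-box core occurred in 44.9%, the TGA factor core in 18.6% and the motif of SARD1 and CBP60g in 12.5%. The W-box core overlaps the TGA factor core wherever a G follows it. These are descriptions of letters, not of binding.

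UGT76B1 glucosylates salicylic acid, isoleucic acid and N-hydroxypipecolic acid, and so joins both routes. It had 5.52, 3.79 and 3.42 CPM in aig2abc pad4 libraries, 6.28, 5.13 and 6.66 CPM in aig2abc libraries, 0.388, 0.187 and 0.501 CPM in pad4 libraries, and 0.775, 1.07 and 3.8 CPM in Col-0 libraries. The pad4 libraries were below all others and the aig2abc libraries above Col-0, but Col-0 replicate 3 stood apart from its 2 companions and inside the range of aig2abc pad4. The counts behind them were 46, 21 and 22 in aig2abc pad4, 18, 3 and 20 in aig2abc, 4, 2 and 4 in pad4, and 7, 7 and 37 in Col-0.

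UGT76B1 rose in aig2abc pad4 relative to pad4 by 3.32 ± 0.56 (edgeR adjusted p = 0.0013), and this call held in all 19 alternatives that tested it. It rose in aig2abc relative to Col-0 by 1.73 ± 0.51 (edgeR adjusted p = 0.0142). Removing Col-0 replicate 1 ended the call (1.31, edgeR adjusted p = 0.0566), as did removing aig2abc replicate 1 (1.62, 0.0671) or aig2abc replicate 3 (1.71, 0.0545), and the change was 2.73 without Col-0 replicate 3. The difference of -2.37 ± 0.58 in pad4 relative to Col-0 did not pass with edgeR (adjusted p = 0.0908), though the libraries did not overlap. With Col-0 replicate 1 left out it passed (-2.77, edgeR adjusted p = 0.0148), as it did with DESeq2 (-2.43, adjusted p = 0.0346). UGT76B1 in aig2abc pad4 differed by -0.78 ± 0.49 from aig2abc (edgeR adjusted p = 0.248) and by 0.95 ± 0.46 from Col-0 (0.456), and the interaction was 1.59 ± 0.76 (0.149). Without Col-0 replicate 3 the difference of aig2abc pad4 from Col-0 was 1.96 (edgeR adjusted p = 0.0483).

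UGT74F2 attaches glucose to the carboxyl group of salicylic acid to give its glucose ester, and its tandem copy UGT74F1 mainly forms the storage glucoside. The pair lies on chromosome 2, 3620 bases apart, with coding sequences that are 84.1% identical (1136 of 1350 bases) and a longest shared run of 48 bases. The last 60 coding bases show, in capitals, the 13 differences that could tell 3′ reads of the copies apart (RefSeq TAIR10.1, forward strand).
UGT74F2 coding end: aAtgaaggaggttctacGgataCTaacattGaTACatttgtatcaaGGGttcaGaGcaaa
UGT74F1 coding end: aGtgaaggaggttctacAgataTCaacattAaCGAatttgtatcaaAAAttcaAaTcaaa
On the opposite strand, 13 of 1695 stretches of 50 bases in the UGT74F2 transcript and 308 of 1427 in that of UGT74F1 are shared with antisense genes. The strand setting of the counting is not given in the sources used here, so both are reported as uncertain in this respect.

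UGT74F2 had 14, 15.9 and 11.8 CPM in aig2abc pad4 libraries, 11.5, 12 and 13 CPM in aig2abc libraries, 5.63, 4.58 and 5.26 CPM in pad4 libraries, and 4.76, 6.55 and 8.52 CPM in Col-0 libraries. Its levels fell into a higher pair, aig2abc pad4 and aig2abc, and a lower pair, pad4 and Col-0, with no overlap between the pairs. UGT74F2 rose in aig2abc relative to Col-0 by 0.91 ± 0.29 (edgeR adjusted p = 0.0219) and in aig2abc pad4 relative to pad4 by 1.20 ± 0.27 (0.0128). It differed by -0.33 ± 0.27 between pad4 and Col-0 (edgeR adjusted p = 0.895) and by -0.04 ± 0.29 between aig2abc pad4 and aig2abc (0.928). Relative to Col-0, UGT74F2 in aig2abc pad4 differed by 0.86 ± 0.26 (edgeR adjusted p = 0.141), and the interaction was 0.29 ± 0.39 (0.631).

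Both UGT74F2 calls depended on single libraries. That of aig2abc against Col-0 was lost when Col-0 replicate 1 was left out (0.67, edgeR adjusted p = 0.114), without aig2abc replicate 1 (0.86, 0.0901) and without aig2abc replicate 3 (0.90, 0.0758). That of aig2abc pad4 against pad4 was lost without pad4 replicate 3 (1.14, edgeR adjusted p = 0.055) and without aig2abc pad4 replicate 2 (1.16, 0.0803).

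UGT74F1 had 7, 5 and 1 counts in aig2abc pad4 libraries, 0 in each aig2abc library, 5, 1 and 0 in pad4 libraries, and 1, 0 and 0 in Col-0 libraries. It was too low to be tested, and a floor of 3 counts over a group stood for 0.148 CPM in aig2abc pad4, 0.465 in aig2abc, 0.103 in pad4 and 0.118 in Col-0. The pooled ratio of aig2abc pad4 over Col-0 was 16.2 (95% interval 2.44 to 689) and that over pad4 was 3.09 (1.1 to 9.93). Libraries overlapped with pad4 and not with Col-0, where the nearest libraries had 1 count each. Summed with UGT74F2, the pair had 14.9, 16.8 and 12 CPM in aig2abc pad4, 11.5, 12 and 13 in aig2abc, 6.12, 4.67 and 5.26 in pad4, and 4.87, 6.55 and 8.52 in Col-0. The split into a higher and a lower pair of genotypes thus held for the sum too.

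**Figure D2:**
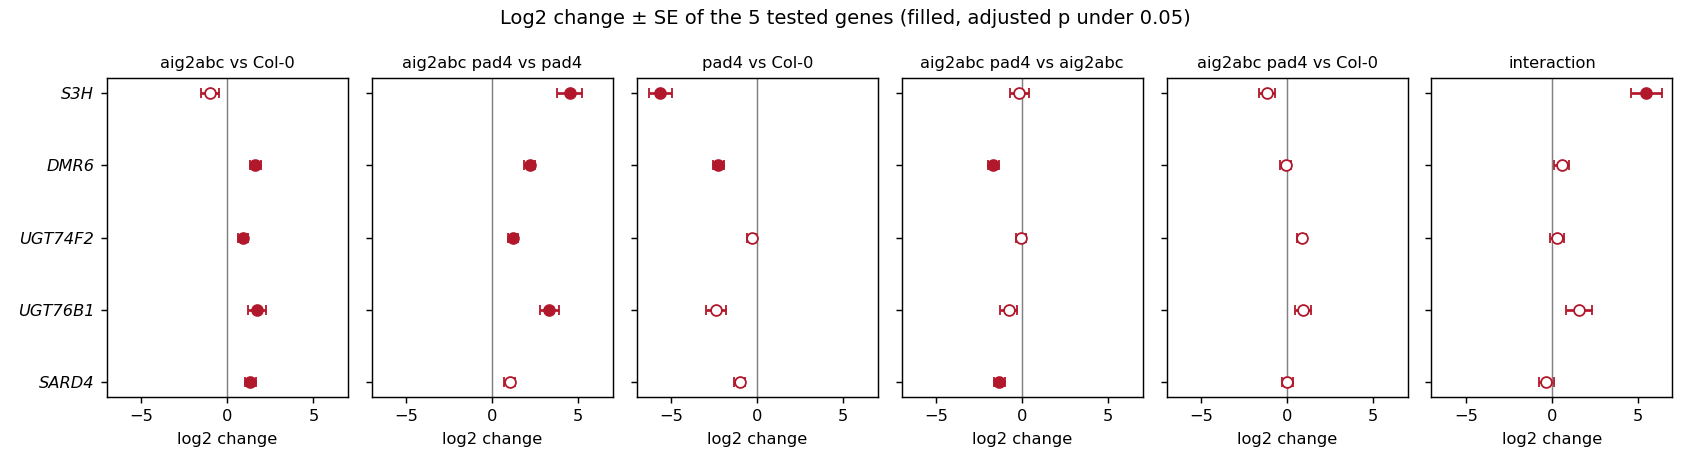
Log2 change ± SE of the 5 tested genes in each of 6 comparisons (the last the interaction), from edgeR's quasi-likelihood fit, with filled points where the adjusted p is under 0.05. S3H has the widest span, with -5.64 in pad4 against Col-0 and 4.49 in aig2abc pad4 against pad4, and no point is filled for aig2abc pad4 against Col-0.

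ALD1, the aminotransferase that takes lysine into the pipecolic acid route, had 9, 6 and 0 counts in aig2abc pad4 libraries, 3, 0 and 9 in aig2abc libraries, 0 in each pad4 library, and 11, 5 and 22 in Col-0 libraries. In CPM this was 1.08, 1.08 and 0 in aig2abc pad4, 1.05, 0 and 2.99 in aig2abc, 0 in pad4, and 1.22, 0.762 and 2.26 in Col-0. Col-0 alone had counts in every library. Against a floor of 3 counts over the group, ALD1 was at least 14.5-fold lower in pad4 than in Col-0 and at least 7.14-fold higher in aig2abc pad4 than in pad4, although 1 aig2abc pad4 library also had none. The exact 95% limits of the same pooled ratios nearest to 1 were 11.2-fold and 5.12-fold, for counting error only. ALD1 did not pass the filter. With no filter on low counts its edgeR adjusted p was 0.000159 in pad4 against Col-0 and 0.00776 in aig2abc pad4 against pad4, and 0.0217 for the interaction. Of 12 alternatives that tested ALD1, 7 called it lower in pad4 than in Col-0, with edgeR adjusted p of 0.000159 to 0.145 over the 12, and none of the 3 that left out a pad4 library did. ALD1 was not tested without Col-0 replicate 3 or without aig2abc replicate 3, where its CPM was highest. The 12 alternatives thus all kept those libraries, and the number of calls depends on that. In aig2abc pad4 against pad4 and for the interaction, 2 of the 12 called it, with no filter and without aig2abc pad4 replicate 3, and the edgeR adjusted p reached 0.207 and 0.145. The pooled ratio of aig2abc over Col-0 was 1.24 (0.589 to 2.42).

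SARD4, the reductase that completes pipecolic acid, had 33.3, 34.3 and 42.3 CPM in aig2abc pad4 libraries, 81.9, 77 and 80.2 CPM in aig2abc libraries, 16.1, 12.1 and 19.8 CPM in pad4 libraries, and 16.6, 34.1 and 46.3 CPM in Col-0 libraries. The aig2abc libraries were alike and above all others, whereas Col-0 spanned the whole of aig2abc pad4 and reached into pad4. SARD4 rose in aig2abc relative to Col-0 by 1.34 ± 0.32 (edgeR adjusted p = 0.00427) and fell in aig2abc pad4 relative to aig2abc, at -1.34 ± 0.32 (0.00872). The second call was lost without aig2abc replicate 1 (-1.17, edgeR adjusted p = 0.0533), without aig2abc pad4 replicate 1 (-1.11, 0.0634) and without aig2abc pad4 replicate 2 (-1.15, 0.0641).

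SARD4 in aig2abc pad4 differed from pad4 by 1.02 ± 0.32, just short of the threshold (edgeR adjusted p = 0.0907), without overlap of libraries. That difference passed without Col-0 replicate 1, a library outside that comparison (1.04, edgeR adjusted p = 0.0158). In pad4 relative to Col-0 SARD4 differed by -1.01 ± 0.32 (edgeR adjusted p = 0.306), and by -1.34 when Col-0 replicate 1 was left out (0.0154). From Col-0, aig2abc pad4 differed by 0.01 ± 0.31 (edgeR adjusted p = 0.997), and the interaction was -0.32 ± 0.45 (0.636). Of 1307 stretches of 50 bases in the SARD4 transcript, 40 are shared with the overlapping AT5G52800, and 0 of those are in its last 500 bases.

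FMO1, which hydroxylates pipecolic acid to its mobile form, had 0 counts in each aig2abc pad4 library, 0, 0 and 3 in aig2abc libraries, 0 in each pad4 library, and 4, 0 and 2 in Col-0 libraries. With so few counts its order over genotypes was not detectable at this depth.

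Spread within genotypes was shared by several of the genes. Col-0 replicate 3 had the highest Col-0 level of S3H, DMR6, UGT74F2, UGT76B1, ALD1 and SARD4, and PAD4 also had its highest Col-0 level there, at 36.2 CPM, against 17.1 and 24.5 CPM in Col-0 replicates 1 and 2. A first component of the deviations from the group means, found in the 9 libraries outside aig2abc, carried 52.5% of the variance of those deviations. Its scores were 57.6, 47.4 and -39.4 in aig2abc pad4, -73.7, -83.5 and -60.8 in aig2abc, 52.9, 8.1 and -12.6 in pad4, and 84, 11.9 and 8.06 in Col-0. Over the 9 libraries, which share their depth and preparation with the score, deviations of SARD4 had r = -0.848 with it, those of DMR6 -0.714, of UGT74F2 -0.492, of UGT76B1 -0.361 and of S3H 0.174.

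The 3 aig2abc libraries scored beyond all others, so the score and that genotype cannot be told apart. With the score as a covariate, 0 of 5 genes were called in aig2abc against Col-0. Over all tested genes, 1377 were called there with the score and 5656 without it. DMR6 was then at 0.90 (edgeR adjusted p = 0.0982), UGT74F2 at 0.63 (0.351), UGT76B1 at 1.18 (0.313) and SARD4 at 0.41 (0.461). In aig2abc pad4 against aig2abc, 0 of the 5 were called, with DMR6 at -0.99 (edgeR adjusted p = 0.126) and SARD4 at -0.48 (0.461). Over all tested genes, 325 were called there with the score and 3661 without it. All 5 were called in aig2abc pad4 against pad4 with the covariate, and in pad4 against Col-0, 4 were, namely S3H, DMR6, UGT76B1 and SARD4. Over all tested genes, 240 were called in pad4 against Col-0 with the score and 104 without it. The score was drawn from the spread of those same libraries, with the 5 genes included. It takes up part of that spread by its making. For SARD4 in aig2abc pad4 against pad4 the SE was 0.32 without the score and 0.2 with it. The added calls are therefore no separate support.

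The genes of synthesis gave a second view of the same hormone. Of 10 tested synthesis genes and shared regulators, 4 rose in aig2abc relative to Col-0, where 18.0% of all tested genes rose, and none fell, with a median log2 change of 0.94. They were ICS1, the isochorismate synthase that starts the route (2.43 ± 0.35), the chloroplast exporter EDS5 (1.70 ± 0.47), and the transcriptional activators SARD1 (1.87 ± 0.39) and CBP60g (1.21 ± 0.37). For SARD1 the libraries overlapped, at 6.85 to 31.3 CPM in aig2abc and 4.1 to 8.42 in Col-0, while those of ICS1, EDS5 and CBP60g did not. With the replicate score as covariate, EDS5 (1.16, edgeR adjusted p = 0.23) and SARD1 (1.31, 0.0908) no longer passed. Relative to pad4, 1 of these 10 rose in aig2abc pad4, namely CBP60g, at 1.37 ± 0.36 (edgeR adjusted p = 0.0385), where 3.34% of all tested genes rose. Whether this differs from the count of turnover and pipecolic acid genes was not tested. That call was lost in 8 of 19 alternatives, among them the fits without aig2abc replicate 3, without any 1 of the pad4 libraries and without aig2abc pad4 replicate 1 or 2, with adjusted p up to 0.172. The CBP60g call in aig2abc against Col-0 was lost when Col-0 replicate 2 was removed (0.93, edgeR adjusted p = 0.0694) and without aig2abc replicate 1 (1.00, 0.118). ICS1 in aig2abc pad4 relative to pad4 was at 0.90 ± 0.35 (edgeR adjusted p = 0.207), and EDS5 at 1.45 ± 0.45 (0.0887), without overlap of libraries. None of the 10 passed in pad4 against Col-0, where 0.690% of all tested genes were called. ICS1 and SARD1 fell in aig2abc pad4 relative to aig2abc, at -2.24 ± 0.35 and -2.57 ± 0.40. The interaction for ICS1 was -1.53 ± 0.49 (edgeR adjusted p = 0.0449), opposite in sign to that of S3H. That call was lost in 11 of 19 alternatives, 9 of them leaving out a single library (any but Col-0 replicate 3, pad4 replicate 1 and aig2abc pad4 replicate 3, adjusted p up to 0.142), and its adjusted p reached 0.725 with the replicate score as covariate.

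**Figure D3:**
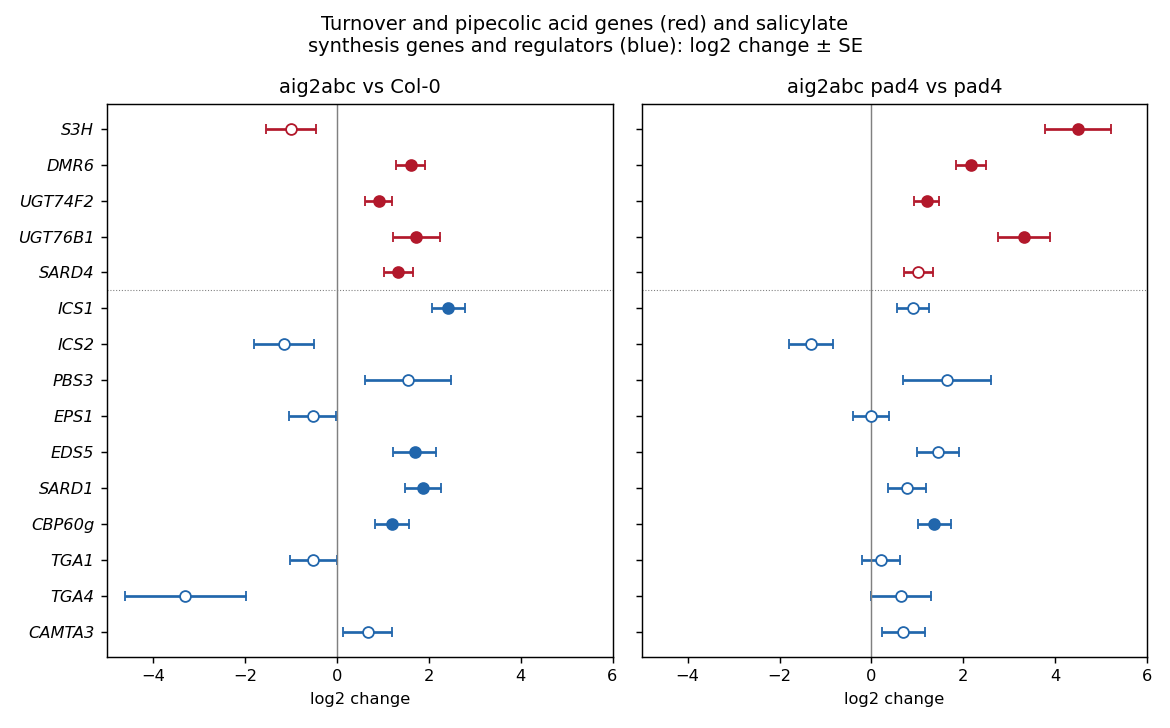
Log2 change ± SE of the 5 tested turnover and pipecolic acid genes (red) and 10 synthesis genes and regulators (blue) in aig2abc against Col-0 and in aig2abc pad4 against pad4, filled where the edgeR adjusted p is under 0.05. In the second panel 4 red points and 1 blue point are filled, against 4 of each in the first.

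DMR6 and SARD4 were also set against ICS1 within each library, since a ratio of counts in a library does not depend on its total. Only changes of such a ratio between libraries can be read, not its size. DMR6 over ICS1 was 4.7, 4.14 and 2.37 in aig2abc pad4, 2.79, 2.55 and 1.83 in aig2abc, 1.42, 1.61 and 1.24 in pad4, and 3.56, 4.68 and 4.05 in Col-0. Both aig2abc and pad4 lay below Col-0 without overlap, while aig2abc pad4 overlapped Col-0. ICS1 itself was at 78.8, 53.1 and 90.2 CPM in aig2abc, against 9.31, 12.3 and 21.2 CPM in Col-0. SARD4 over ICS1 was 2.37, 2.02 and 1.79 in aig2abc pad4, 1.04, 1.45 and 0.889 in aig2abc, 2.52, 1.57 and 1.66 in pad4, and 1.79, 2.77 and 2.18 in Col-0. Here aig2abc was below the other 3 genotypes, which overlapped. DMR6 over PAD4 was 10.4, 7.2 and 10 in aig2abc pad4, 4.12, 3.59 and 3.17 in aig2abc, 3.36, 4.4 and 4.72 in pad4, and 1.94, 2.35 and 2.37 in Col-0, so that aig2abc lay above Col-0 without overlap and the direction depends on the gene divided by. No test was made of these ratios.

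**Figure D4:**
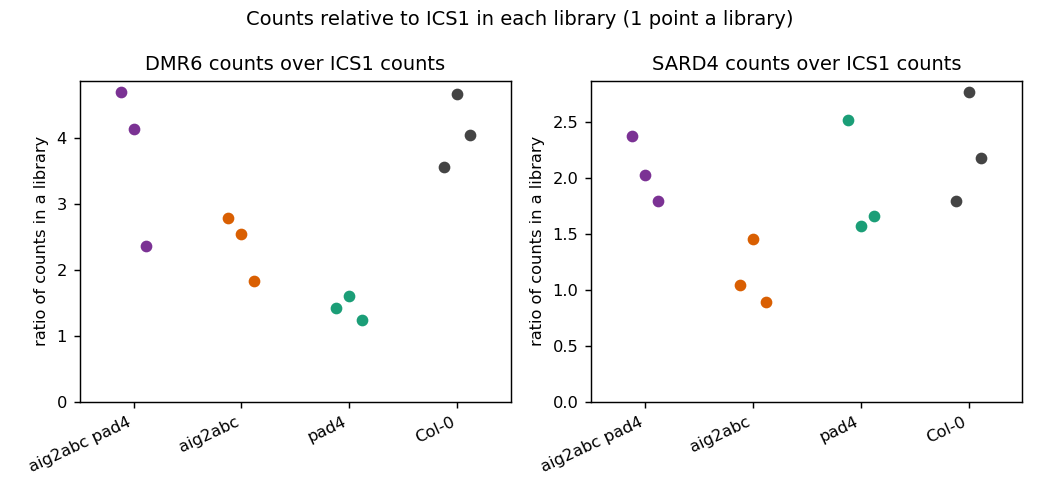
Counts of DMR6 (left) and SARD4 (right) divided by counts of ICS1 in the same library (linear axes from 0), by genotype, with 1 point a library. DMR6 over ICS1 is lowest in pad4 (1.24 to 1.61), and SARD4 over ICS1 is lowest in aig2abc (0.889 to 1.45).

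Of 9 other genes whose products modify salicylic acid, 5 were tested. In aig2abc relative to Col-0, where 18.0% of all tested genes rose and 19.5% fell, 2 rose and 1 fell. Of these, the sulfotransferase SOT12 (1.37) was not called without Col-0 replicate 1 (1.32, edgeR adjusted p = 0.0651), without Col-0 replicate 2 (1.33, 0.0618), without aig2abc replicate 3 (0.72, 0.35) or with the replicate score (0.59, 0.565). The methyl salicylate esterase MES2 (-0.66) was not called without Col-0 replicate 3 (-0.62, edgeR adjusted p = 0.069), without aig2abc replicate 1 (-0.67, 0.0916), without aig2abc replicate 2 (-0.62, 0.0692), with counts thinned to the lowest library total (-0.52, 0.148) or with the replicate score (-0.50, 0.281). In aig2abc pad4 relative to pad4, where 3.34% of all tested genes rose, 1 rose. That gene was UGT71C3, a glucosyltransferase of methyl salicylate, which averaged 32.3 ± 8.27 CPM in aig2abc pad4, 10.8 ± 3.02 in aig2abc, 1.32 ± 0.619 in pad4 and 1.11 ± 0.206 in Col-0 (SD, n = 3 each). It rose by 3.25 ± 0.38 in aig2abc relative to Col-0 (edgeR adjusted p = 2.5e-05) and by 4.33 ± 0.34 in aig2abc pad4 relative to pad4 (1.95e-07). It was also higher in aig2abc pad4 than in Col-0 (4.62 ± 0.35, edgeR adjusted p = 1.89e-07), where 0 of the 5 tested turnover and pipecolic acid genes were called.

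Of 8 close relatives, 5 were tested, and 2 rose and 1 fell in aig2abc relative to Col-0, against the same shares of 18.0% and 19.5%. UGT74D1 fell (-1.05, edgeR adjusted p = 0.0117), but not without aig2abc replicate 1 (-0.98, 0.0537), without aig2abc replicate 3 (-1.04, 0.051), thinned (-0.80, 0.098) or with the replicate score (-0.44, 0.46). UGT74B1 rose (1.69), but not with the replicate score (0.76, edgeR adjusted p = 0.0895). AT1G05675, a glycosyltransferase of the same superfamily, had 15.6, 18.8 and 18.7 CPM in aig2abc pad4, 22.7, 13.7 and 24.6 in aig2abc, 0.874, 0.467 and 1.63 in pad4, and 0.443, 0.762 and 1.23 in Col-0. Both mutant lines with aig2abc were far above both lines without it, by 4.70 ± 0.42 for aig2abc over Col-0 and 4.00 ± 0.39 for aig2abc pad4 over pad4 (edgeR adjusted p = 1.63e-06 and 2.53e-06).

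Lysine, the precursor of pipecolic acid, is supplied and broken down by a list of 12 genes, all tested. In aig2abc relative to Col-0, where 18.0% of all tested genes rose, 2 rose, AK-LYS1, an aspartate kinase that opens the route (2.36 ± 0.39, edgeR adjusted p = 0.00037), and DHDPS2, a dihydrodipicolinate synthase (1.26 ± 0.40, 0.02). The call of DHDPS2 was lost when Col-0 replicate 2 was removed (1.05, edgeR adjusted p = 0.0714), without aig2abc replicate 1 (1.24, 0.0636) and without aig2abc replicate 2 (1.07, 0.0593). It was also lost with the replicate score (0.58, edgeR adjusted p = 0.534). None passed in aig2abc pad4 against pad4, in pad4 against Col-0 or in aig2abc pad4 against Col-0. In those comparisons 4.00%, 0.690% and 1.74% of all tested genes were called. AK-LYS1 fell in aig2abc pad4 relative to aig2abc (-1.81 ± 0.38, edgeR adjusted p = 0.00502). These AK-LYS1 calls were lost with the replicate score as covariate, at 0.93 in aig2abc against Col-0 (edgeR adjusted p = 0.0577) and -0.60 in aig2abc pad4 against aig2abc (0.31). The interaction was called for AK-LYS1 alone of the 12 (-2.29 ± 0.53, edgeR adjusted p = 0.0172), where 14.8% of all tested genes were called. That call was lost in 5 of 19 alternatives, with edgeR adjusted p up to 0.395.

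Across the 12 libraries the tested genes followed each other to different degrees on log2 CPM. Pearson's r was 0.937 for DMR6 with SARD4, 0.919 for DMR6 with UGT76B1 and 0.919 for UGT74F2 with UGT76B1, and lowest, 0.484, for S3H with UGT74F2. The points share genotypes and library depth, and r is a description. Over all tested genes, the patterns most like S3H were those of PNP-A (r = 0.952), AT5G10760 (0.935) and RING1 (0.929), and the most like DMR6 were AT4G00700 (0.995), PCR1 (0.987) and AT3G28510 (0.972). UGT74F2 was closest to AT3G63380 (0.969), AT1G67360 (0.965) and CYP71A13 (0.963). UGT76B1 was closest to NDB2 (0.971), AT3G28580 (0.969) and WAK3 (0.965), and SARD4 to ARCK1 (0.984), AT2G17710 (0.97) and XBAT34 (0.968). In the 9 libraries outside aig2abc, AT4G00700 again led for DMR6 (0.991), NDB2 stayed among the first 3 for UGT76B1 (0.968) and ARCK1 for SARD4 (0.956), while the 3 closest to S3H and UGT74F2 were other genes.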

How the data were processed

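RNA was profiled by 3′ RNA-seq in 12 libraries, and the authors deposited them as a table of raw counts, which are whole numbers without normalization. STAR, edgeR and the build TAIR10 are named in the submitters' processing notes, with no versions. How reads were aligned, by which annotation and with which strand option they were counted is not given in the sources used here, so reads of overlapping or antisense genes may have been split or added. A 3′ count does not scale with gene length.

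Libraries were placed in genotypes by the labels. One pad4 column is numbered 3 while the titles number no pad4 sample so, and it was placed by genotype only and is called pad4 replicate 3. The 33331 genes included 11272 without counts. Replicates differed by more than counting noise (chi-square per gene 3.39 to 57.7) and each was kept. Levels are CPM, counts scaled by the library total.

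Genes passing filterByExpr (15082) were scaled by TMM and fitted with edgeR 4.0.16 in R 4.3.3, as 4 group means over all 12 libraries, and tested two-sided by its quasi-likelihood F-test with robust settings, with Benjamini-Hochberg adjustment over all tested genes at 0.05 within each of 6 comparisons. The biological coefficient of variation was 28.7% over all genes. The procedure was tested on simulated data, drawn independently for each gene and library. The spread shared by genes within genotypes was not simulated, so that run does not bear on it. Pooled ratios carry exact 95% intervals for counts. Likeness used log2 CPM with a prior count of 2. Alternatives were RLE scaling, DESeq2 1.42.0, no filter, a minimum of 1 CPM in 3 libraries, the compared groups alone, a replicate block, each library left out, thinning to the smallest total, and the replicate score as covariate.

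The 8 genes, the other lists and the tests were chosen with earlier results of these data known. The named genes are all 8, up to 4 called genes of each list and comparison by smallest p, and the 3 closest patterns per gene. The genotype check of AIG2A and AIG2B was added after the counts were seen. Sequences and annotated starts are from RefSeq TAIR10.1, read with Biopython 1.88 under Python 3.11.15. Its gene table matched 28932 identifiers, all 8 among them.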

Additional observations from a re-analysis of the deposited data

Results flagged for a closer look

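S3H differed between backgrounds: the change of aig2abc pad4 from pad4 exceeded that of aig2abc from Col-0 by 5.48 on the log2 scale (SE 0.91, edgeR interaction, Benjamini-Hochberg adjusted p = 0.00909). The pad4 group held 2 counts of S3H in 3 libraries, and aig2abc held 14, so the value rests on few counts. DESeq2 gave no adjusted p for it, and it could not be tested at the smallest depth. The S3H level was higher in aig2abc pad4 than in pad4 in all 3 libraries, and the aig2abc and Col-0 libraries overlapped.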

How the results depend on the processing

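With edgeR's quasi-likelihood test the number of the 5 tested genes called was 4 in aig2abc against Col-0, 4 in aig2abc pad4 against pad4, 2 in pad4 against Col-0, 2 in aig2abc pad4 against aig2abc, 0 in aig2abc pad4 against Col-0 and 1 for the interaction. Leaving out each library in turn gave 2 to 4, 3 to 5, 2 to 5, 1 to 2, 0 to 1 and 1 to 2 in those comparisons, ALD1 being counted where it then passed the filter. ALD1 was among the 5 in pad4 against Col-0, where UGT74F2 was not called, and among the 2 of the interaction. Thinned to the smallest total, where 2 genes could be tested, the numbers were 2 in aig2abc against Col-0, 2 in aig2abc pad4 against pad4, 1 in pad4 against Col-0 and 0 for the interaction. Over all genes the thinned fit called 2882, 185, 27 and 1204, against 5656, 603, 104 and 2227. With the replicate score the numbers of the 5 genes were 0 in aig2abc against Col-0, 4 in pad4 against Col-0, 0 in aig2abc pad4 against aig2abc and 1 in aig2abc pad4 against Col-0, the last being UGT74F2. Over all genes the fit with that score called 1377, 240, 325 and 947, against 5656, 104, 3661 and 263. That score was drawn from the spread of the libraries outside aig2abc, so calls added between those groups are no separate support. With no filter, 4 were called in pad4 against Col-0 and 2 for the interaction, ALD1 among both, and DESeq2 called 0 for the interaction, giving S3H no adjusted p. UGT74F2 in aig2abc against Col-0 was also lost with no filter (0.78, edgeR adjusted p = 0.113) and with the compared groups alone (0.85, 0.0505). SARD4 in aig2abc pad4 against pad4 passed with DESeq2 (1.01, adjusted p = 0.0389), with no filter (1.00, edgeR adjusted p = 0.039) and thinned (1.33, 0.0454), and UGT76B1 in pad4 against Col-0 passed with no filter (-2.35, edgeR adjusted p = 0.0175). The cause of these differences was not tested.

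The sign turned for 5 differences near 0, none of which passed. S3H in aig2abc pad4 against aig2abc ranged over -0.55 to 0.33 with a library left out (0.12 and 0.01 among them), and DMR6 in aig2abc pad4 against Col-0 ranged over -0.35 to 0.23 with a library left out and was 0.20 thinned. UGT74F2 in aig2abc pad4 against aig2abc was 0.02 with RLE and with DESeq2, 0.10 with no filter, 0.03 with the compared groups alone, 0.21 with the replicate score and -0.05 to 0.09 with a library left out (0.01 and 0.04 among them). SARD4 in aig2abc pad4 against Col-0 was -0.01 with RLE and with DESeq2, -0.07 with the replicate score and -0.30 to 0.30 with a library left out (-0.26 among them), and its interaction ranged over -0.61 to 0.06 with a library left out and was 0.63 with the replicate score.

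The replicate numbers were not taken to pair the libraries, since that needed every same-numbered pair over 0.1: same-numbered libraries of different genotypes correlated in their deviations at -0.273 to 0.55, 5 of 15 pairs over 0.1 (0.515, 0.542 and 0.55 for the replicate 1 libraries outside aig2abc, above the highest other-numbered pair, 0.464), and 5 of 11 numbered libraries matched best with their own number. With the replicate block, 4, 3, 2, 2, 0 and 1 genes were called in the 6 comparisons, UGT74F2 in aig2abc pad4 against pad4 no longer passing (1.08, edgeR adjusted p = 0.0731). In that fit pad4 replicate 3, whose number matches no title, had a block of its own and did not bear on the pad4 mean. The loss cannot be told apart from that of leaving this library out (1.14, edgeR adjusted p = 0.055). Over all genes, DESeq2 called 160 against 104 in pad4 against Col-0 and 442 against 263 in aig2abc pad4 against Col-0. With no filter the median of all genes moved to -0.24 in aig2abc against Col-0, against -0.08, and to 0.33 for the interaction, against 0.13. The depth of aig2abc limits S3H, UGT74F1, ALD1 and FMO1.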
